A study of Mus musculus with 15 samples.

Results

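The 10 genes described here make and load MHC class I molecules, and were taken as the rows of the deposited expression matrix whose gene name is H2-K1, H2-D1, B2m, Tap1, Tap2, Tapbp, Psmb8, Psmb9, Nlrc5 or Erap1. All 10 were found among the 55359 rows, and 9 of them held reads. RNA had been sequenced in 15 mouse samples, 3 in each of 5 groups. The line 46LCNEC came from a large cell neuroendocrine lung carcinoma (LCNEC) and the line 57SCLC from a small cell lung carcinoma (SCLC). Both tumors had arisen in QKO mice, which carry floxed alleles of Rb1, Trp53 and a further tumor suppressor together with null alleles of Rbl1. Recombination was started in the lung by Ad-CMVcre, an adenovirus with the broadly active CMV promoter, for 46LCNEC, and by Ad-K5cre, with a keratin 5 promoter, for 57SCLC. Groups 46LCNEC_cell (adherent culture) and 57SCLC_cell (aggregates in suspension) are separate dishes or flasks of those lines. Groups 46LCNEC_allo and 57SCLC_allo are separate tumors grown under the skin of immunocompetent syngeneic QKO mice after injection of the same line, and Lung is normal lung of littermates of those recipients. The animals' age, strain background and H2 haplotype were not given in the sources used here. Each tumor type was represented by 1 line, so that subtype, line, passage and mode of culture cannot be told apart, and p-values measure the spread among these samples only.

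Cells show fragments of their own proteins on MHC class I molecules, where CD8 T cells and NK cells read them. Proteins are cut by the proteasome, which exchanges catalytic subunits for Psmb8 and Psmb9 after interferon-gamma, and the peptides are carried into the endoplasmic reticulum by the transporter Tap1/Tap2, trimmed by Erap1 and loaded with the help of Tapbp (tapasin) onto a heavy chain (H2-K1 or H2-D1) paired with B2m. Nlrc5 is a transactivator that acts at class I promoters. Low levels of this set, and its induction by interferon, are well known in small cell lung carcinoma.

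Of the 10 genes, 7 lie on chromosome 17 in or beside the H2 region. In GRCm39 coordinates of GENCODE release M39, H2-K1 spans chr17:34214987-34219321 (minus strand) and H2-D1 spans chr17:35481691-35486475 (plus strand). Psmb9 (chr17:34400960-34406738, minus strand), Tap1 (chr17:34405996-34416199, plus strand), Psmb8 (chr17:34416690-34420428, plus strand) and Tap2 (chr17:34422501-34435829, plus strand) follow one another. Tapbp spans chr17:34134873-34148267. Outside chromosome 17 are Nlrc5 (chr8:95160984-95253900), Erap1 (chr13:74787687-74841320) and B2m (chr2:121977957-121983594).

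Promoter sequences are shown for both heavy chains, for B2m and for the start shared by Tap1 and Psmb9, because the results turn on the heavy chains, B2m was listed at 0 and Tap1 and Psmb9 lie head to head. They come from RefSeq in build GRCm38.p6, which is not the build of the gene positions above, and 8 of the 10 genes had a promoter there, the exceptions being Tap2 and Nlrc5. Each stretch holds the 250 bases before the start of transcription, 5′ to 3′ on the gene's strand, of the C57BL/6J reference. Capitals mark matches, on either strand, to 2 forms of the interferon-stimulated response element (GAANNGAAA and a longer form with 1 more A before the free bases N, the latter searched for after the B2m stretch had been seen), TTCNNNGAA (the gamma-activated site), GGGANTCCC (a kappaB palindrome), TGACG (the core of the CRE, as in the X2 box) and CCAAT (the Y box core). The stretches are H2-K1 at chr17:34000348-34000597, minus strand, H2-D1 at chr17:35262844-35263093, plus strand, B2m at chr2:122147437-122147686, plus strand, and Tap1 at chr17:34187306-34187555, plus strand.
H2-K1: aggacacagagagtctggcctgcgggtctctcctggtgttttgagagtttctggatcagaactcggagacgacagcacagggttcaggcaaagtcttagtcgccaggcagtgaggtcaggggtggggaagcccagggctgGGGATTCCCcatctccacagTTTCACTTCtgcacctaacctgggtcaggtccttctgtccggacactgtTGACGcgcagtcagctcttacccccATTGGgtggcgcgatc
H2-D1: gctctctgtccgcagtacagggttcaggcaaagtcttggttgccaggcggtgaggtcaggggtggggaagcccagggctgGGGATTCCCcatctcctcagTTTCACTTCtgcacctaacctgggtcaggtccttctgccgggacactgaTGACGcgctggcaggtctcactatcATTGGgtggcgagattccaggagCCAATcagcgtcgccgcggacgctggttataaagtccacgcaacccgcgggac
B2m: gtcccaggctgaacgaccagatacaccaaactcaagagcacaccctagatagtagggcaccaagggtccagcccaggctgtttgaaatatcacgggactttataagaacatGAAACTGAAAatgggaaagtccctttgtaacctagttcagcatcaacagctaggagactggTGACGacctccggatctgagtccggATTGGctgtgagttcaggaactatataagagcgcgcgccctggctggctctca
Tap1: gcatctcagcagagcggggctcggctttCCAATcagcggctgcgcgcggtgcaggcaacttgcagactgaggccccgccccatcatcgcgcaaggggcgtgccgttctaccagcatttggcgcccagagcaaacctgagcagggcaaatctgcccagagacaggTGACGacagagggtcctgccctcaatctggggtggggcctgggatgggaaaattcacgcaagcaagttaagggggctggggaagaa

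In H2-K1 and H2-D1 the kappaB palindrome, the shorter interferon element, the CRE core and the CCAAT box followed one another in the same order and with the same spacing (a further CCAAT box lies within the H2-D1 stretch and, for H2-K1, just after the start). With H2-D1 shifted by 60 bases, 166 of 190 aligned bases were identical (87.4%). The start of Psmb9 lies 226 bases from that of Tap1 on the opposite strand, so that 225 bases of the Tap1 stretch are the Psmb9 promoter read in reverse. Over windows of 250 bases before and 50 after the start, the shorter interferon element was present in 2 of the 8 genes (H2-K1 and H2-D1), against 7.56% of 27025 gene promoters. The longer form was present in 2 others (B2m and Erap1), against 3.49%. The kappaB palindrome was present in H2-K1 and H2-D1, against 0.777% of all promoters. The CRE core was found in 5 of 8 (B2m, H2-D1, H2-K1, Psmb9 and Tap1) against 21% of promoters, and the CCAAT box in 6 of 8, the same 5 genes and Tapbp, against 37.9%. For both motifs the Tap1 and Psmb9 matches are the same bases, read on opposite strands. The H2-K1 and H2-D1 promoters are also near copies, so these counts of genes are not counts of independent matches. The gamma-activated site was found in 1 of 8, Psmb8, against 8.47%. These matches describe letters only.

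Counted reads ranged from 9480244 to 44876572 per sample (median 26502525), with the fewest in 57SCLC_allo tumor 275. All values below are normalized counts, read counts that the authors divided by 1 scaling factor per sample. Lung expressed alveolar and airway markers at a summed 343554 to 450751, and no other sample exceeded 205.4. Neuroendocrine markers summed to 25056 to 32032 in 57SCLC cells and allografts, to 24.2 to 63.1 in 46LCNEC cells and allografts and to 154 to 174 in Lung, so that the summed markers were lower in the 46LCNEC samples than in Lung. Of these, Elavl3, at 14.3 to 16.1 in 46LCNEC_cell, was called 3.33-fold higher there than in Lung. In the plot of normalized counts by gene and group, the cell lines lay lowest for most of the genes and Lung and the 46LCNEC allografts highest.

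**Figure D1:**
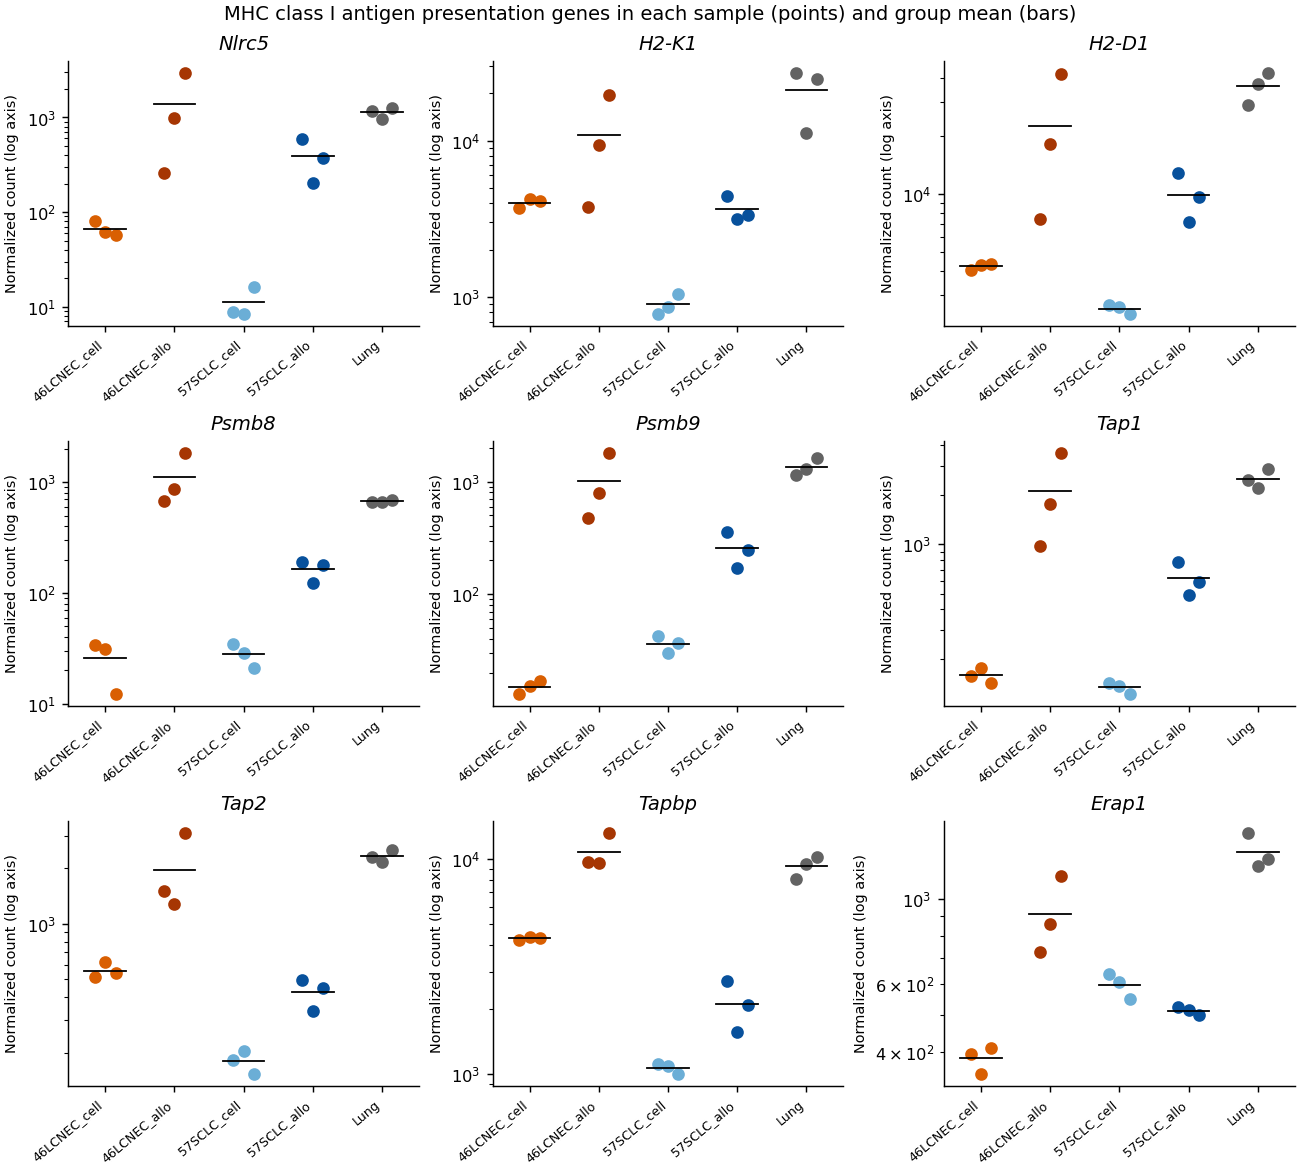
Normalized counts of the 9 class I presentation genes with reads, on a log axis, for the 3 samples (points) of each of 5 groups, with the group mean as a bar. All 9 genes were lower in every cell line sample than in every Lung sample, and the 3 46LCNEC allografts spread widely, from 258 to 2942 for Nlrc5. The share of all genes separated in this way was not counted.

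B2m, the invariant light chain, was listed at 0 in all 15 samples, Lung included, and could not be compared. Its whole span lies within Patl2, a gene on the opposite strand, in the annotation used here (a later release than that of the authors). Among protein-coding genes, 1011 of 1394 whose span was wholly covered by other genes were at 0 in all samples (72.5%). With a coverage above 50% but under 100%, 157 of 1417 were at 0 (11.1%). The counts were 218 of 8827 with a coverage of up to 50% (2.47%) and 2291 of 9989 with no overlap (22.9%). The strand setting and the handling of reads on overlapping genes were not given in the sources used here. Other genes overlapped parts of 7 of the remaining members, with the largest shares for Psmb8 (57.2% of its span), Tap2 (38%), Tapbp (34.4%) and Psmb9 (12.9%). Reads in those parts may have been left out, and this was not tested.

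H2 genes are highly polymorphic and have close paralogs, and reads were aligned to the C57BL/6J reference. Lung sample CT4 stood apart here, and its H2 haplotype was not given in the sources used here. Between chr17:34134873 and chr17:37794472, 8 of 132 genes differed at least 4-fold from both other Lung samples in CT4 (6.06%), against 19 of 15117 genes elsewhere (0.126%). Lower in CT4 were H2-Q5, H2-Q10, H2-T22 and H2-Eb1, and also Gm6034, Hspa1a and Hspa1b, which are not H2 genes. Trim10 was higher. H2-T22, a class Ib gene, had 861, 19.9 and 517 in Lung CT3, CT4 and CT5, and H2-Eb1, a class II chain, had 9659, 389 and 6888. These genes were picked after their values were seen. The shares were 2.27% against 0.192% in CT3 and 9.09% against 2.78% in 46LCNEC tumor 321. In tumor 321 all 10 such genes of the region were higher, the class II chains H2-Aa and H2-Ab1 among them. Markers of class II presenting cells summed to 82815 there, against 5173 and 2383 in tumors 312 and 319. No cell line sample had such a gene in the region. Samples were compared only within their group, here 1 line, so this cannot show a haplotype difference between the lines. Among the 57SCLC allografts, tumor 316 was at least 4-fold above the other tumors at 2 of 111 genes of the region, H2-T22 (62.3 against 4.79 and 5.67) and H2-Eb1 (890 against 127 and 72.6). The counts of H2-K1 and H2-D1 are therefore given with this uncertainty, and whether haplotype moved with them was not tested.

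Nlrc5, the transactivator, had the widest range. In 46LCNEC_cell it was 79.8, 61.8 and 56.9 in dishes A, B and C, and in 57SCLC_cell 8.73, 8.44 and 16.2 in flasks A, B and C, from 14 to 31 reads. The 46LCNEC allografts 312, 319 and 321 had 258, 997 and 2942, the 57SCLC allografts 275, 316 and 317 had 589, 204 and 376, and Lung CT3, CT4 and CT5 had 1170, 969 and 1254. The order of means was 46LCNEC_allo, Lung, 57SCLC_allo, 46LCNEC_cell and 57SCLC_cell, and only the ranges of the leading pair overlapped between neighbors.

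H2-K1, a classical heavy chain, was 3713, 4212 and 4090 in 46LCNEC_cell and 786, 871 and 1042 in 57SCLC_cell. It was 3744, 9429 and 19492 in 46LCNEC_allo, 4436, 3145 and 3351 in 57SCLC_allo, and 26928, 11130 and 24785 in Lung. Tumor 312 stayed within the range of its parental cells, while tumor 321 exceeded them, and the ranges of Lung, 46LCNEC_allo, 46LCNEC_cell and 57SCLC_allo overlapped between neighbors in that order. Only 57SCLC_cell stood below all others.

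H2-D1, the other classical heavy chain, was 4015, 4258 and 4346 in 46LCNEC_cell and 2639, 2577 and 2386 in 57SCLC_cell. Its values were 7450, 18158 and 41904 in 46LCNEC_allo, 12819, 7138 and 9680 in 57SCLC_allo, and 28886, 37182 and 42463 in Lung. Every allograft was above every culture, and the ranges of Lung and 46LCNEC_allo, and of 46LCNEC_allo and 57SCLC_allo, overlapped.

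Psmb8, the inducible subunit that replaces Psmb5, was 33.8, 30.9 and 12.3 in 46LCNEC_cell and 34.9, 28.9 and 20.8 in 57SCLC_cell, so that the lines overlapped. It was 682, 863 and 1829 in 46LCNEC_allo, 189, 123 and 180 in 57SCLC_allo, and 668, 666 and 684 in Lung. The 57SCLC allografts lay between the cultures and the other tissues without overlap.

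Psmb9, the inducible subunit that replaces Psmb6, was 13.1, 15.5 and 16.9 in 46LCNEC_cell (14 to 22 reads) and 42.5, 30.2 and 37 in 57SCLC_cell. It was 478, 795 and 1784 in 46LCNEC_allo, 354, 173 and 245 in 57SCLC_allo, and 1148, 1296 and 1613 in Lung. It was 1 of 2 genes of the set, with Erap1, whose levels in 57SCLC_cell all exceeded those in 46LCNEC_cell.

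Tap1, a subunit of the peptide transporter, was 159, 175 and 144 in 46LCNEC_cell and 143, 137 and 123 in 57SCLC_cell. It was 970, 1759 and 3568 in 46LCNEC_allo, 778, 488 and 586 in 57SCLC_allo, and 2436, 2176 and 2839 in Lung. The cultures were separated by less than 1 normalized count, and the allografts of the lines did not overlap.

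Tap2, its partner, was 517, 618 and 540 in 46LCNEC_cell and 182, 204 and 154 in 57SCLC_cell. It was 1505, 1270 and 3087 in 46LCNEC_allo, 493, 336 and 449 in 57SCLC_allo, and 2283, 2157 and 2515 in Lung. The 57SCLC allografts lay below every 46LCNEC culture.

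Tapbp, the loading chaperone, was 4229, 4335 and 4290 in 46LCNEC_cell and 1112, 1093 and 1003 in 57SCLC_cell. It was 9748, 9593 and 13210 in 46LCNEC_allo, 2700, 1571 and 2089 in 57SCLC_allo, and 8120, 9510 and 10190 in Lung. As with Tap2, all 57SCLC allografts were below the 46LCNEC cultures, and only 46LCNEC_allo and Lung overlapped.

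Erap1, the trimming peptidase, was 395, 351 and 409 in 46LCNEC_cell and 637, 606 and 549 in 57SCLC_cell. It was 728, 859 and 1146 in 46LCNEC_allo, 522, 512 and 498 in 57SCLC_allo, and 1479, 1215 and 1268 in Lung. It was the 1 gene of the 9 that was lower in every 57SCLC allograft than in every 57SCLC culture, and no neighboring groups overlapped.

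Between the cultured lines, 57SCLC_cell had lower Nlrc5, H2-K1, Tap2 and Tapbp and higher Psmb9 than 46LCNEC_cell. A gene was called when the Benjamini-Hochberg adjusted p of limma over all genes tested was at most 0.01 and the fold change at least 2, on log2(normalized count + 1). Of 9 genes tested, 4 were lower and 1 was higher, against 22.2% of all genes tested called lower and 23.9% called higher in this comparison, and the median log2 difference was -0.73 against 0 over all genes. The log2 difference was -2.51 ± 0.29 for Nlrc5 (SE, n = 3 against 3, adjusted p = 9.28e-05, limma), -2.16 ± 0.11 for H2-K1 (adjusted p = 7.69e-07), -2 ± 0.07 for Tapbp (adjusted p = 8.27e-08) and -1.63 ± 0.14 for Tap2 (adjusted p = 1.44e-05). Psmb9 was 2.31-fold higher (adjusted p = 0.0014, limma), a call that was lost when all 15 samples were fitted in 1 limma model (adjusted p = 0.0102). H2-D1 (-0.73 ± 0.07) and Erap1 (0.63 ± 0.11) had adjusted p of 3.31e-05 and 0.000785 but differed by less than 2-fold. Tap1 (-0.24 ± 0.15) and Psmb8 (0.22 ± 0.40) had adjusted p of 0.162 and 0.626, and the sign for Psmb8 turned without 46LCNEC_cell dish C (-0.22).

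Between the allografts, all 9 estimates were below 0, and Psmb8, Tapbp and Tap2 were called lower in 57SCLC_allo than in 46LCNEC_allo. These were 3 lower and 0 higher of 9 tested, against 14.2% of all genes called lower and 16.1% called higher, with a median log2 difference of -1.59 against 0.01 over all genes. The log2 difference was -2.66 ± 0.38 for Psmb8 (SE, adjusted p = 0.00123, limma), -2.37 ± 0.22 for Tapbp (adjusted p = 0.000186) and -2.10 ± 0.34 for Tap2 (adjusted p = 0.00212). Psmb9 (-1.83 ± 0.50, adjusted p = 0.0189), Tap1 (-1.59 ± 0.46, adjusted p = 0.0227) and Erap1 (-0.81 ± 0.18, adjusted p = 0.00821) were not called by limma. Nlrc5 (-1.35 ± 0.86), H2-K1 (-1.29 ± 0.55) and H2-D1 (-0.89 ± 0.60) had adjusted p of 0.222, 0.086 and 0.241. Without tumor 312, 6 genes were called, all lower, and DESeq2 on the recovered reads also called 6. Without tumor 316, 2 were called. With scaling by library size alone the share of higher among all genes called went from 53.1% to 64.2%, the median of all genes moved to 0.28, and 3 of the genes described here were called as before.

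**Figure D2:**
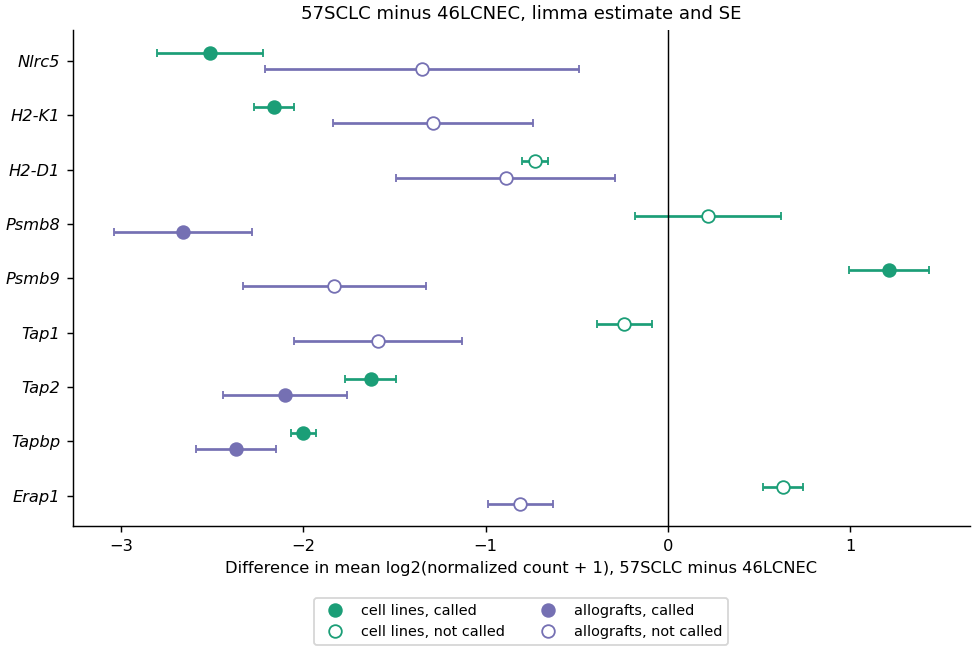
Difference in mean log2(normalized count + 1) of each gene, 57SCLC minus 46LCNEC, in the cell lines and in the allografts, with the limma standard error (n = 3 against 3). Filled points passed both thresholds, and Psmb9 and Erap1 lie right of 0 in the cell lines and left of 0 in the allografts.

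Growth as an allograft went with higher levels of most of the set in both lines. In 46LCNEC, 7 of 9 genes rose and none was called lower, against 14.4% of all genes tested called higher and 8.45% called lower. The median log2 difference was 2.08, against 0 over all genes. Psmb9 rose by 5.77 ± 0.45 on the log2 scale (54.7-fold, adjusted p = 8.53e-05, limma, n = 3 against 3), Psmb8 by 5.39 ± 0.49 (41.8-fold, adjusted p = 0.000157), Nlrc5 by 3.78 ± 0.77 (13.7-fold, adjusted p = 0.00549) and Tap1 by 3.52 ± 0.42 (11.4-fold, adjusted p = 0.000535). Tap2, Tapbp and Erap1 rose 3.24-fold, 2.50-fold and 2.33-fold. H2-D1 (2.08 ± 0.54, adjusted p = 0.0151) and H2-K1 (1.14 ± 0.52, adjusted p = 0.102) were not called by limma, at estimated folds of 4.24 and 2.21. The calls of Nlrc5 and Tap2 were lost without any 1 of the 3 cultures, at limma adjusted p between 0.0226 and 0.0255 and between 0.013 and 0.0196, and Nlrc5 was also lost without tumor 319 (adjusted p = 0.0129). Without tumor 312 all 9 genes were called, and the log2 differences of H2-D1, H2-K1 and Nlrc5 were 2.71, 1.76 and 4.69. Without tumor 321 they were 1.47, 0.57 and 2.94, and of these Nlrc5 was called.

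In 57SCLC, 7 of 9 genes rose in the allografts and none was called lower, against 14.4% of all genes called higher and 2.29% called lower, with a median of 2.01 against 0 over all genes. Nlrc5 rose by 4.94 ± 0.41 (30.7-fold, adjusted p = 3.38e-05, limma), Psmb9 by 2.73 ± 0.28 (6.65-fold, adjusted p = 0.000123) and Psmb8 by 2.50 ± 0.27 (5.67-fold, adjusted p = 0.000157). Tap1 rose by 2.17 ± 0.18, H2-K1 by 2.01 ± 0.15, H2-D1 by 1.92 ± 0.19 and Tap2 by 1.23 ± 0.18. Tapbp (0.95 ± 0.18, adjusted p = 0.00341, limma) stayed under 2-fold and was called without tumor 316 (1.15), and Erap1 had -0.22 ± 0.10 (adjusted p = 0.111). In bulk tissue, a share of RNA from other cells and a change of level within tumor cells cannot be told apart.

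**Figure D3:**
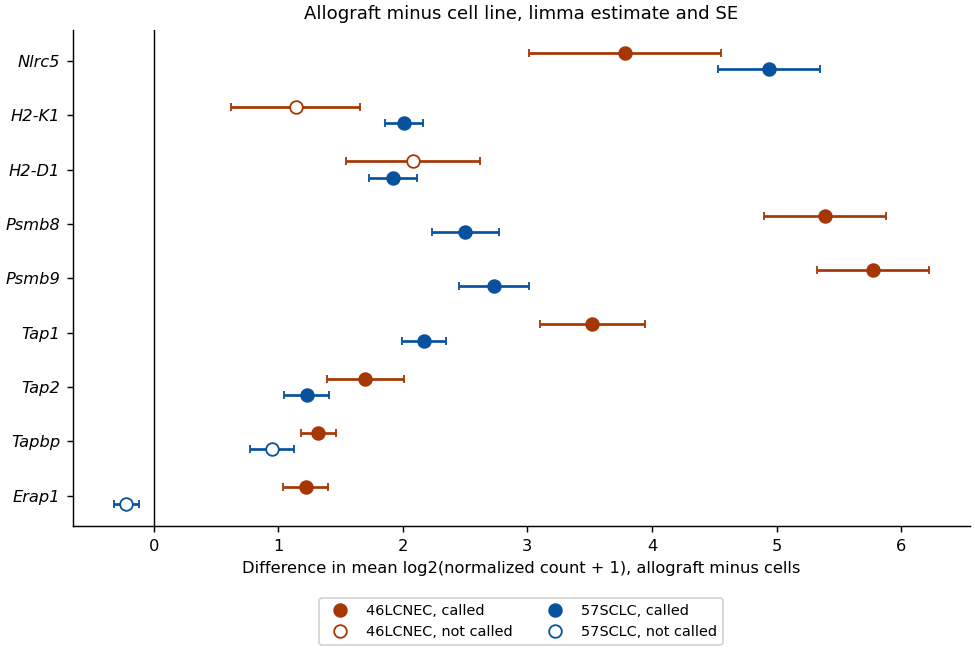
Difference in mean log2(normalized count + 1), allograft minus cells, for each gene in 46LCNEC and in 57SCLC, with the limma standard error (n = 3 against 3). Filled points passed both thresholds, and the lines lie farthest apart at Psmb9 (5.77 and 2.73) and Psmb8 (5.39 and 2.50).

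The allograft-minus-cell difference itself was unequal between the lines for 3 genes. In the interaction model of 12 samples, the difference of 57SCLC was smaller than that of 46LCNEC for Psmb9 (-3.04 ± 0.58, adjusted p = 0.00174, limma), Psmb8 (-2.88 ± 0.60, adjusted p = 0.00305) and Erap1 (-1.44 ± 0.21, adjusted p = 0.000298). These were 3 lower and 0 higher of 9, against 6.78% of all genes called lower and 10.8% called higher. Tap1 had -1.35 ± 0.50 (adjusted p = 0.0537, limma) and was called without tumor 312 (-1.80, adjusted p = 0.00313). Nlrc5 (1.16 ± 0.97), H2-K1 (0.87 ± 0.60), H2-D1 (-0.16 ± 0.64), Tap2 (-0.47 ± 0.39) and Tapbp (-0.37 ± 0.24) had adjusted p between 0.256 and 0.865.

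Against Lung, both cultures were low throughout. The comparisons with Lung share the same 3 Lung samples and are not independent of one another. In 46LCNEC_cell 9 of 9 genes were lower than in Lung, against 35% of all genes called lower and 20.6% called higher, from Tapbp (-1.11 ± 0.09) to Psmb9 (-6.38 ± 0.18, adjusted p = 3.96e-09, limma), with a median of -3.09 against -0.23 over all genes. The Tapbp call was lost with edgeR and with TMM scaling (both -0.98). In 57SCLC_cell 9 of 9 were lower, against 32.7% of all genes lower and 21.1% higher, from Erap1 (-1.14 ± 0.10) to Nlrc5 (-6.60 ± 0.26, 96.7-fold, adjusted p = 2.16e-07, limma), with a median of -4.19 against -0.12. The Erap1 call was lost with library size scaling (-0.91).

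In 57SCLC_allo 9 of 9 genes were still lower than in Lung, against 26.9% of all genes called lower and 18.9% called higher, from Erap1 (-1.36 ± 0.10) to Tap2 (-2.46 ± 0.15, adjusted p = 2.7e-06, limma), and the median was -2.05 against -0.09. Nlrc5 (-1.66 ± 0.34, adjusted p = 0.00277, limma) lost its call without Lung CT3 (adjusted p = 0.0152), without Lung CT5 (adjusted p = 0.0127) and with all 15 samples in 1 limma model (adjusted p = 0.0307). In 46LCNEC_allo none of the 9 genes was called in either direction by limma, against 22.1% of all genes called lower and 13.4% called higher, and none by edgeR or DESeq2. At an unadjusted p below 0.05, 1 gene was lower, Erap1 (-0.56 ± 0.18, adjusted p = 0.036, limma). The other estimates ran from -1.14 ± 0.63 for H2-K1 to 0.61 ± 0.35 for Psmb8, and ranges overlapped for 8 of 9 genes. The share of all genes with overlapping ranges was not counted. The sign for Nlrc5 (-0.30 ± 0.80) turned with edgeR (0.38), with DESeq2 (0.34) and without tumor 312 (0.61). Without Lung CT4, the differences from Lung for H2-K1 and H2-D1 were -2.69 and -3.06 in 46LCNEC_cell, -4.85 and -3.79 in 57SCLC_cell, -2.84 and -1.87 in 57SCLC_allo and -1.55 and -0.97 in 46LCNEC_allo, with every call as before.

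The ratio of each inducible proteasome subunit to the one it replaces was taken within each sample, per exon length, a ratio on which sample scaling bears only through the pseudocount of 1. Psmb8 to Psmb5 had a mean log2 ratio of -4.23 in 46LCNEC_cell, -3.42 in 57SCLC_cell, 1.72 in 46LCNEC_allo, -0.97 in 57SCLC_allo and 1.69 in Lung. The 3 46LCNEC allografts (0.92, 1.75 and 2.48 for tumors 312, 319 and 321) overlapped Lung (1.76, 1.19 and 2.12), whereas the 57SCLC allografts (-0.81, -1.25 and -0.84) lay between cultures and Lung. Psmb9 to Psmb6 had means of -7.23, -5.60, -1.09, -2.68 and 0.15 in the same order of groups. The 57SCLC cultures (-5.39, -5.95 and -5.47) were above the 46LCNEC cultures (-7.29, -7.18 and -7.22) and the 57SCLC allografts (-2.24, -3.09 and -2.70) below the 46LCNEC allografts (-2, -1 and -0.26). Unlike in the Psmb8 to Psmb5 ratio, every 46LCNEC allograft was below Lung here (0.01, 0.01 and 0.42 in CT3, CT4 and CT5). Groups of 3 against 3 cannot give an exact permutation p under 0.1, two-sided, and that value was reached for each line comparison and each allograft-to-cell comparison of both ratios. Psmb5 itself ranged from 138 to 179 in 57SCLC_cell and from 213 to 266 in 46LCNEC_cell.

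The heavy chains did not keep one proportion. H2-K1 counts divided by H2-D1 counts gave 0.925, 0.989 and 0.941 in 46LCNEC_cell and 0.503, 0.519 and 0.465 in their allografts, without overlap. In 57SCLC the ratio was 0.298, 0.338 and 0.437 in cells and 0.346, 0.441 and 0.346 in allografts, which overlapped. In Lung it was 0.932, 0.299 and 0.584, so that Lung alone covered nearly the whole range of the other groups, with its lowest value in CT4. The handling of H2 reads was not tested.

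**Figure D4:**
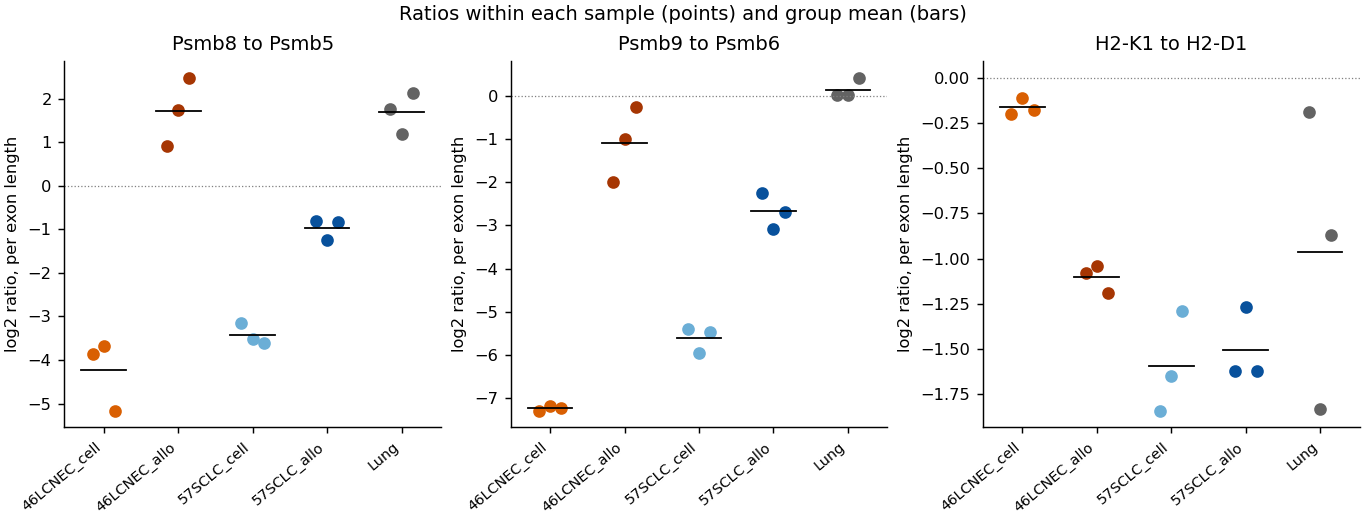
Log2 ratios per exon length within each sample (points) with group means (bars) for Psmb8 to Psmb5, Psmb9 to Psmb6 and H2-K1 to H2-D1. The mean Psmb8 to Psmb5 ratio is -4.23 in the 46LCNEC cultures, 1.72 in their allografts and 1.69 in Lung, and the 3 Lung samples are spread in the heavy chain ratio. For Psmb9 to Psmb6 the 46LCNEC allografts (mean -1.09) lie below Lung (0.15).

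Genes of the surrounding pathway were read from lists, whose counts stand against the shares of all genes called. Those were 23.9% higher and 22.2% lower between the cultures, 16.1% and 14.2% between the allografts, 14.4% and 8.45% between allografts and cells of 46LCNEC, and 14.4% and 2.29% in 57SCLC. Among 16 other class I heavy chain genes, 3 (H2-T10, H2-T23 and H2-T24) were listed at 0 throughout. H2-Q4 rose in the allografts of 46LCNEC (2.93, adjusted p = 0.00534, limma) and of 57SCLC (2.45, adjusted p = 1.05e-05), with 390 to 473 and 209 to 211 in the cultures and 1225 to 8060 and 913 to 1467 in the tumors. In the allografts 2 of 5 tested heavy chain genes rose in 46LCNEC (H2-Q4 and H2-T22, median 0.86) and 5 of 5 in 57SCLC (median 3.14, also with the genes without reads in the cells at their lower bounds), none called lower in either line. H2-M9 was not called in 46LCNEC (-3.40 ± 0.83, adjusted p = 0.012, limma), although every allograft (10.6, 0 and 3.32) was below every culture (34.6 to 44.1). H2-Q2 went the other way between lines, with no read in the 46LCNEC cultures and 84.9 to 117 in the 57SCLC cultures, at least 37-fold higher against a floor of 3 reads per library. Between the cultures 4 of 5 tested heavy chain genes were lower in 57SCLC, among them H2-M5 (-5.09, adjusted p = 1.73e-06, limma) and H2-M9, which had no read in 57SCLC_cell and was at least 22.8-fold lower. H2-M3, which presents formylated peptides, rose in the 57SCLC allografts from 9.82 to 13.9 in cells to 82.1 to 156 (3.14, adjusted p = 7.19e-05, limma).

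Of the class I-like molecules, 4 of 4 tested were lower in 57SCLC than in 46LCNEC, both in culture (median -3.87) and as allografts (median -2.05). Fcgrt, the neonatal Fc receptor, had 594 to 650 in 46LCNEC_cell and 2.08 to 4.22 in 57SCLC_cell (-7.25, adjusted p = 5.56e-08, limma). Mr1, which presents vitamin B metabolites to MAIT cells, had 814 to 852 and 7.64 to 15.1 (-6.20, adjusted p = 1.44e-07, limma). Both rose in the 57SCLC allografts, Fcgrt to 392 to 725 and Mr1 to 93.4 to 161.

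The constitutive proteasome core moved little next to Psmb8 and Psmb9. None of its 14 genes was called between 57SCLC allografts and cells (median -0.10), and 1, Psmb3, was lower in 46LCNEC allografts than in cells (-1.60, adjusted p = 0.000265, limma). Between cultures 5 of 14 were lower in 57SCLC, with a median of -0.77, against 22.2% of all genes and a median of 0. Psmb10, the third inducible subunit, was listed at 0 in all samples. The proteasome activator Psme1 was higher in 57SCLC_cell (682 to 792) than in 46LCNEC_cell (205 to 221), by 1.83 (adjusted p = 1.29e-06, limma), whereas Psme2 was not called (0.46). Of the loading factors, Calr, Pdia3 and Canx, chaperones of the endoplasmic reticulum, were lower in 57SCLC_cell (log2 differences of -1.49, -1.32 and -1.15), 3 of 5 tested, and none of 5 was called between allografts and cells in either line (medians -0.46 and -0.13). The peptidases Lap3, Thop1 and Tpp2 were lower in 57SCLC_cell, 3 of 6 tested, against the same 22.2% of all genes.

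Among transcription regulators of class I genes, Irf1, an interferon-induced factor, was lower in 57SCLC_cell (325 to 329) than in 46LCNEC_cell (817 to 870), with a log2 difference of -1.37 (adjusted p = 1.81e-06, limma), and it rose in both allografts (1.97 and 1.59). Nfkb1 and Rela, NF-kappaB subunits, were lower in 57SCLC in culture (-3 and -1.63) and as allografts (-2.25 and -1.06). Ciita, the class II transactivator, was low in both cultures, at 1.10 to 5.63 in 46LCNEC_cell and 19.9 to 26.7 in 57SCLC_cell (2.92, adjusted p = 0.000397, limma), and rose in the 46LCNEC allografts to 45, 25.3 and 480 in tumors 312, 319 and 321 (4.67). In all, 3 of 12 tested were higher and 3 lower between cultures, shares near those of all genes (23.9% and 22.2%). In the 46LCNEC allografts 3 of 12 rose and in the 57SCLC allografts 1 of 12, against 14.4% of all genes in each.

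Interferon signaling genes differed in both directions between the cultures. Jak1, a kinase of the type I and type II interferon receptors, had 3447 to 3592 in 46LCNEC_cell and 18.1 to 36.5 in 57SCLC_cell (-6.89, adjusted p = 1.04e-07, limma). Its level rose to 548 to 886 in the 57SCLC allografts and was 3697 to 4628 in the 46LCNEC allografts. Ifnar2, a chain of the type I receptor (54.6 to 66.3 against 433 to 526), and Ifngr2, a chain of the interferon-gamma receptor (241 to 308 against 1902 to 2211), were lower in 57SCLC_cell (-3.02 and -2.86). Ifnar1, the other chain of the type I receptor, named after its values were seen, was not called (1363 to 1700 against 2882 to 3049, -0.91). Of 12 genes of the list, 4 were lower and 2 higher in 57SCLC_cell (median -0.45), against 22.2% and 23.9% of all genes. Stat2 (869 to 1034 against 407 to 466) and Irf9 (601 to 711 against 257 to 310) were above 46LCNEC_cell in every flask. Both were named after their values were seen. In the 57SCLC allografts 4 of 12 rose, and in those of 46LCNEC 0 of 12, against 14.4% of all genes in each. In the interaction 4 of 12 were called higher, Jak1 (4.40) and Ifngr2 (1.47) among them, and 1 lower, Socs1 (-1.64), an inhibitor of Jak kinases. The shares of all genes called there were 10.8% higher and 6.78% lower.

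Interferon-gamma induced genes outside the class I pathway were also higher in the allografts. Of 11 listed, 3 were at 0 throughout (Cxcl10, Igtp and Tgtp1). All 8 tested rose in the 57SCLC allografts, with a median of 7.64, or 7.32 with the 3 genes that had no read in the cultures set at their lower bound, and 6 of 8 rose in those of 46LCNEC (median 3.62). Gbp2, a guanylate-binding protein, had no read in 57SCLC_cell and 331 to 737 in 57SCLC_allo, at least 318-fold higher, and 178 to 224 in 46LCNEC_cell. Cxcl9, a T cell chemokine, had no read in either culture, 1101, 483 and 868 in 57SCLC_allo, and 43.7, 27.4 and 2119 in 46LCNEC_allo. Iigp1, an immunity-related GTPase, went from 0 to 0.521 in 57SCLC_cell to 684 to 1518 in 57SCLC_allo, and from 3.84 to 12.1 in 46LCNEC_cell to 140, 140 and 3504 in tumors 312, 319 and 321. Ifnb1 was at most 2.21 and Ifng at most 16.6 in any sample, the highest Ifng value being in 46LCNEC tumor 321. Polycomb repressive complex 2 (Ezh2, Eed and Suz12), which is known to silence class I genes in some tumors, had 0 of 3 genes called between the lines in either setting, with log2 differences of 0.32 to 0.63 in culture. Against Lung, Ezh2 and Suz12 were called higher in 57SCLC_cell (3.05 and 1.51) and in 57SCLC_allo (2.72 and 1.35), and Eed was not called. The medians of the list against Lung were 1.19 in 46LCNEC_cell and 0.82 in 46LCNEC_allo. A part of this complex in the class I levels was not tested.

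Markers of host cells moved with the allograft differences. Leukocyte markers summed to 30.9 to 40.8 in 46LCNEC_cell and 1059 to 1106 in 57SCLC_cell, where Coro1a made up 1046 to 1092 and Ptprc (CD45) was at 0 to 0.521. They reached 6250 to 13278 in 46LCNEC_allo, 5745, 4095 and 5895 in 57SCLC tumors 275, 316 and 317, and 13550 to 14360 in Lung. All 5 leukocyte markers rose in the 46LCNEC allografts and 4 of 5 in those of 57SCLC. Macrophage markers (6 of 7 with reads) summed to 292 to 385 in the cultures, 28087 to 58891 in 46LCNEC_allo, 12116 to 25784 in 57SCLC_allo and 9556 to 10630 in Lung. In the cultures most of that sum was Cd68, at 295 to 336 in 46LCNEC_cell and 225 to 254 in 57SCLC_cell. Fibroblast markers were high in 46LCNEC cultures already (82234 to 92731, against 25 to 32.2 in 57SCLC_cell), and summed to 432572 to 854682 in 46LCNEC_allo, 40542 to 62734 in 57SCLC_allo and 27160 to 32386 in Lung. All 7 fibroblast markers rose in the allografts of each line, with medians of 3.45 in 46LCNEC and 9.54 in 57SCLC. All 5 endothelial markers rose as well, to sums of 5481 to 9416 in 46LCNEC_allo and 2681 to 3732 in 57SCLC_allo. Their medians were 7.79 in 46LCNEC and 8.13 in 57SCLC. With genes without reads in the cells at their lower bounds, the medians were 7.79 and 7.38. The part of these cells in the class I levels of the allografts was not tested. In the cultures Ptprc was at 5.63 or less in every sample.

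Within groups, tumors ranked alike across the class I genes. In 46LCNEC_allo tumor 321 was highest for 9 of 9 genes and tumor 312 lowest for 7 of 9, and the ratio of the highest to the lowest tumor was 1.38 for Tapbp and 11.4 for Nlrc5. Tumor 321 also had the highest T and NK cell markers (1459, against 105 and 66.3 in tumors 312 and 319), class II markers (82815, against 5173 and 2383) and interferon-gamma induced genes (20663, against 3787 and 3370). Tumor 312 exceeded tumor 319 in these 3 sums and in macrophage markers (39535 against 28087) while its class I genes were lower in 7 of 9. In 57SCLC_allo tumor 275 was highest for 9 of 9 genes and tumor 316 lowest for 8 of 9, and tumor 275 was highest and tumor 316 lowest in class II markers (18150 and 8412), macrophage markers and interferon-gamma induced genes (5702 and 2769). These orders rest on 3 tumors a group, and no test was made of them. How many of all genes rank the tumors in the same way was not counted. H2-Eb1 was low beside H2-Aa in tumor 321 (558 and 12649), unlike in tumors 312 (505 and 743) and 319 (248 and 407). It was also low in tumors 275 (127 and 2959) and 317 (72.6 and 2080) and Lung CT4 (389 and 8800). It was not in tumor 316 (890 and 1373), CT3 (9659 and 9652) or CT5 (6888 and 11473). These genes were picked after their values were seen, and whether H2 haplotype differed among the tumors was not tested.

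**Figure D5:**
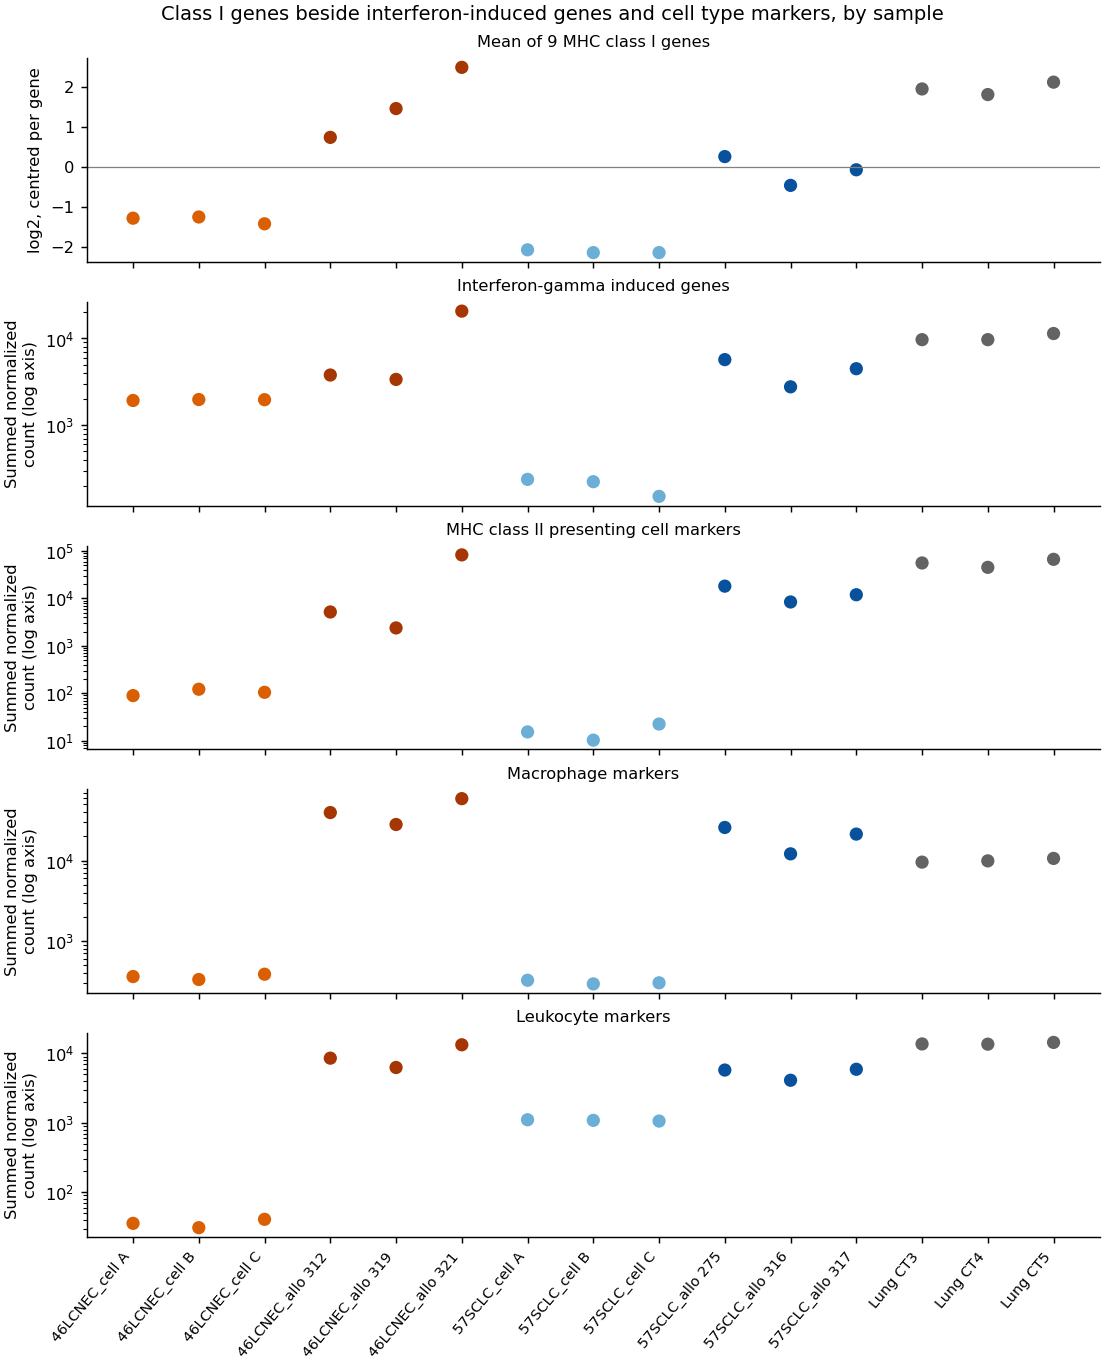
Mean centered log2 level of the 9 class I genes and, below it on log axes, summed normalized counts of interferon-gamma induced genes and of markers of class II presenting cells, macrophages and leukocytes, for each of the 15 samples. The class I mean runs from -2.14 in 57SCLC_cell to 2.49 in 46LCNEC tumor 321, the tumor that is also highest among the allografts in all 4 sums.

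Genes with profiles most like the class I set were found by the root mean square difference of centered log2 levels over all 15 samples, among 15064 named genes with a mean of at least 50. Closest to the mean of the 9 genes were AB124611 (0.313), H2-Q4 (0.364), Plxdc1 (0.424), Irf1 (0.426) and Ebf4 (0.433). Members themselves lay at 0.267 (Tap1), 0.364 (H2-D1) and 0.586 (Tap2) at the near end and at 1.14 (Psmb9) and 1.17 (Erap1) at the far end. Closest to Nlrc5 were Gm5431 (0.673), Ifi44 (0.679), Slc7a7 (0.717), Tlr7 (0.737) and Sirpa (0.776), all nearer to it than any other class I gene, of which Tap1 was nearest (1.09). Sirpa, a myeloid inhibitory receptor, had 604 to 661 in 46LCNEC_cell, 42 to 85.4 in 57SCLC_cell, 2477 to 4133 in 57SCLC_allo and 8502 to 10080 in 46LCNEC_allo.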

How the data were processed

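RNA-seq was made from 15 samples in 5 groups of 3. Per the paper's methods, the authors used Rbowtie2 for alignment to GRCm39, featureCounts (Rsubread) with GENCODE M27 for gene counts and DESeq2 for differential expression, and the tool behind the normalized values was not given in the sources used here. The deposited values are a signal in normalized counts, that is, counts the authors divided by 1 factor per sample, as the steps between values show. Whole reads were recovered from them within 0.01 read. Strand, multi-mapping and overlap settings were not given in the sources used here.

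The members, the other gene lists and the comparisons were chosen with earlier results of these data known. Genes that reached 10 normalized counts in 3 or more samples of a comparison entered a linear model of log2(normalized count + 1) in limma (version 3.58.1, R 4.3.3), fitted to the groups compared. Calls needed an adjusted p (Benjamini-Hochberg) no higher than 0.01 together with a 2-fold difference. The text names all members, up to 3 called genes with the largest differences per list and comparison, lists of 3 or fewer genes in full, and the 5 nearest profiles. edgeR 4.0.16 and DESeq2 1.42.0 on the recovered reads, other scalings, pseudocounts, filters, thresholds, a fit of all 15 samples and leaving out each sample were alternatives. The fitting was tested on simulated data. Ratios within samples were compared with exact two-sided permutation tests. Coordinates and overlaps came from GENCODE release M39, whose identifiers matched 98.9% of rows, and promoters from RefSeq. Replicates differed by more than counting noise in every pair, and none was merged. Flasks A and B of 57SCLC_cell were nearest each other (chi-square per degree of freedom 2.8). Flask C stood apart from A (144) and B (127), and the tests treated the 3 flasks alike. Cultures A, B and C of the lines share letters only.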

Additional observations from a re-analysis of the deposited data

Results flagged for a closer look

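The difference between allografts and cells was unequal between the lines for 3 class I genes in the interaction term of limma over 12 samples (adjusted over all genes tested). The allograft-minus-cell difference of 57SCLC minus that of 46LCNEC was -2.88 for Psmb8, -3.04 for Psmb9 and -1.44 for Erap1 on the log2 scale. All 3 kept their calls without any 1 sample, and none was called when limma tested for a change beyond 2-fold.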

How the results depend on the processing

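The number of class I genes called between the allografts of the lines was 3, and was 6 with DESeq2, 5 at an adjusted p of at most 0.05, 5 with all 15 samples in 1 model and 1 when limma tested for a change beyond 2-fold. It ran from 2 to 6 over the fits that left out 1 sample (2 without 57SCLC tumor 316, 6 without 46LCNEC tumor 312). That stricter test also took the count between 46LCNEC allografts and cells from 7 to 3 and that of the interaction from 3 to 0. Leaving out 1 sample gave 5 to 9 in the former, with 9 without tumor 312 and 5 without any 1 culture. Signs turned only where the estimate was not called. Psmb8 between the cultures ran from -0.22 to 0.48. Against Lung, 46LCNEC_allo gave 0.38 with edgeR and 0.34 with DESeq2 for Nlrc5, and -1.15 to 0.61 without single samples, and Tap1 gave -0.92 to 0.02. The interaction of H2-D1 ran from -0.79 to 0.46 and was 0.21 with all class I heavy chains summed. Where no construction of the alternative shows the cause, the cause was not tested. With culture letters as a replicate block, 5 class I genes were called between the cultures, as without it, and same-letter cultures correlated at 0.092, -0.084 and -0.006. Depth limits Nlrc5 in 57SCLC_cell and Psmb9 in 46LCNEC_cell, with 14 to 31 reads and 14 to 22 reads a sample. Over all genes the stricter test lowered the number called from 5312 to 2861 between the allografts, from 3738 to 1414 and from 2842 to 1700 between allografts and cells of 46LCNEC and 57SCLC, from 6412 to 3451 between 46LCNEC_allo and Lung and from 3233 to 1293 in the interaction, and leaving out 46LCNEC_cell dish C gave 2440 in place of 3738. Library size scaling moved the median of all genes from 0 to 0.23 between the cultures, and from -0.12 to 0.11 and from -0.09 to 0.12 between 57SCLC cells or allografts and Lung.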
